A study of Rattus norvegicus with 11 samples.

Results

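The genes examined here are 5 ligands and 4 receptors of the fibroblast growth factor (FGF) family, Fgf1, Fgf2, Fgf7, Fgf10, Fgf18, Fgfr1, Fgfr2, Fgfr3 and Fgfr4, which were picked by gene symbol from the 18507 genes measured in rat bladder. All 9 were found, and 8 of them were above 0 in every sample. The bladders came from female Sprague-Dawley rats. In rats with partial bladder outlet obstruction (PBOO), a suture had been tied around the bladder neck and urethra over a tube that was then withdrawn, and the control rats, called normal in the sample records, had an abdominal incision only. RNA-seq covered 3 PBOO and 3 normal bladders at week 4 and 2 PBOO and 3 normal bladders at week 5. The normal bladders of week 5 carry the name adult in the expression table, and the study's methods give a single approximate age of several months for all its rats, with none by group. Nothing states that the samples came from pooled animals, and p-values measure the spread between these samples.

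FGF ligands are secreted or released proteins that bind receptor tyrosine kinases together with heparan sulfate chains on the cell surface. The activated receptors recruit the adaptor Frs2 and start the Ras, Raf and MAP kinase cascade, which in turn induces its own inhibitors, such as the Sprouty and dual-specificity phosphatase genes. Fgf7 and Fgf10 are made by mesenchymal cells and act on the epithelial form of Fgfr2, Fgf1 and Fgf2 lack a classical secretion signal, and Fgf18 signals mainly through Fgfr3 and Fgfr4. In the bladder, Fgfr3 is known as a receptor of the urothelium, the epithelium that lines the lumen, and Fgfr1 as a receptor of stromal and muscle cells. Fgf2 (basic FGF) received particular attention in the study.

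The letters just before the start of Fgf2 and Fgfr3 are given here because these genes stood on opposite sides in both weeks. They are the 250 bases upstream of the RefSeq start on the GRCr8 rat assembly, at chr2:122164204-122164453 on the plus strand for Fgf2 and at chr14:81227210-81227459 on the minus strand for Fgfr3. Capitals mark the GC box (GGGCGG, or CCGCCC on the other strand).
Fgf2: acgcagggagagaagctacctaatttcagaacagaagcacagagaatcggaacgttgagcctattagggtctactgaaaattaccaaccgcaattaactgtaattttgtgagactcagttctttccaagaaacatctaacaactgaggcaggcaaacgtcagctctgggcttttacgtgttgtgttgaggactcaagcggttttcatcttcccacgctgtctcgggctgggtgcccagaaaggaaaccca
Fgfr3: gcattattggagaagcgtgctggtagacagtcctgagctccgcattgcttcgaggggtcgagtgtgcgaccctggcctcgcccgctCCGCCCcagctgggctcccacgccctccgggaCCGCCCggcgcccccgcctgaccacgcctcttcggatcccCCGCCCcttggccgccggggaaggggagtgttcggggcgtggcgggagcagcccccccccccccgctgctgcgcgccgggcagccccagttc
The Fgfr3 window held 3 GC boxes and was 74.4% G and C, above 96.1% of the 33469 RefSeq windows of this length. The Fgf2 window held no GC box and was 46.8% G and C, below the median window of 51.2%. GC boxes were found in 30.5% of all windows and in those of Fgfr2, Fgf18, Fgfr3 and Fgfr4 among the 8 members with a window. The AP-1 letters TGAGTCA stood, on either strand, in 4.05% of all windows and in none of these 8, and the TATA box letters TATAAA stood in 12.9% of all windows and only in Fgf7 among the 8. These matches describe letters and were not tested for binding.

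Levels are given in FPKM, the fragments assigned to a gene scaled to the exon length and to the fragments mapped, so that genes can be compared per unit of length. The sums of all FPKM values ranged from 424961 to 564343 between samples, and the table holds no read counts, so the depth behind each value is unknown. The values of the weeks appear to have been made separately: 4871 genes were listed at 0 in all 6 samples of week 4 but only 403 in all 5 samples of week 5. All 6 samples of week 4 also carry the word Input in their names in the expression table, and none of week 5 does. Levels of different weeks are therefore only set side by side. The study's methods name bladder tissue, without the part of the wall that was taken. The smooth muscle, interstitial and urothelial markers were present in all groups, with some exceptions. The urothelial genes Upk3b and Krt7 and the interstitial gene Col6a3 were listed at 0 throughout week 4, and Trp63 was not analysed here. Normal replicate 1 of week 4 stood apart from the other normal bladders. Its summed level of 8 interstitial marker genes was 1020 FPKM against 3822 and 3851 FPKM, and its summed leukocyte markers were 259 against 839 and 977 FPKM. Calls at week 4 that were lost or gained without this sample are given without it too.

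In the normal bladders of week 4, receptors were the most abundant members. Fgfr1 had the highest level, with 44.7 ± 4.81 FPKM (SD, n = 3). Fgfr2 (30.8 ± 6.25 FPKM) and Fgfr3 (28.3 ± 5.39 FPKM) followed with ranges that overlapped each other. The epithelial growth factor Fgf7 was the leading ligand with 17.1 ± 3.90 FPKM, followed by Fgf1 (5.47 ± 0.431 FPKM), Fgf2 (3.81 ± 0.250 FPKM) and Fgf10 (3.01 ± 2.01 FPKM). The ranges of Fgf2 and Fgf10 overlapped, and those of Fgf1 and Fgf2 did not. Fgfr4 (0.823 ± 0.203 FPKM) and Fgf18 (0.660 ± 0.172 FPKM) were lowest and overlapped. In the normal bladders of week 5 the order was different, with Fgfr3 (44.9 ± 8.31 FPKM) above Fgfr1 (35.2 ± 1.61 FPKM) without overlap, and Fgfr2 next at 11.1 ± 0.497 FPKM. Fgf1 led the 5 ligands examined there with 4.53 ± 0.444 FPKM. Fgfr4 (1.34 ± 0.370 FPKM), Fgf7 (1.18 ± 0.243 FPKM), Fgf2 (1.08 ± 0.0729 FPKM) and Fgf10 (0.945 ± 1.06 FPKM) lay within overlapping ranges, and Fgf18 had 0.252 ± 0.207 FPKM. Because the weeks appear to have been processed apart, the lower level of Fgf7 and Fgf2 in the later normal bladders and a difference of processing cannot be told apart.

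**Figure D1:**
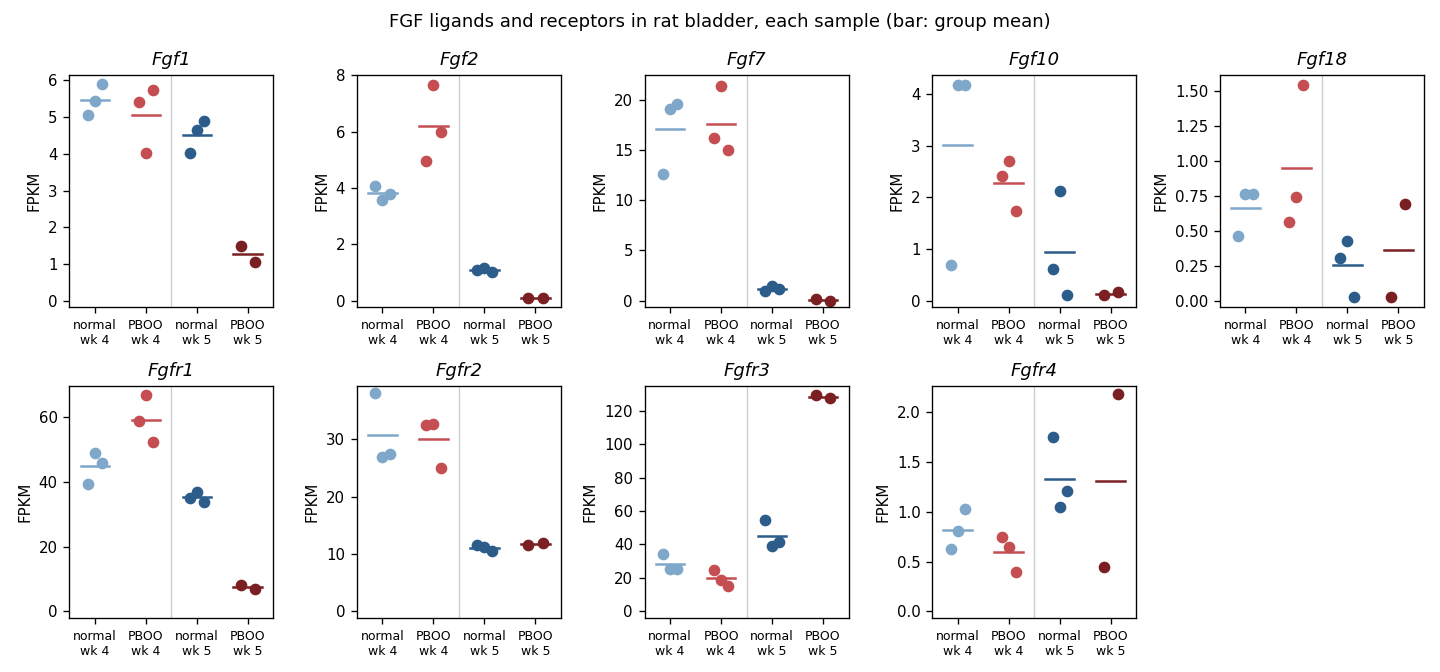
Level of each FGF ligand and receptor in FPKM (linear axis that includes 0, own scale per gene) in every sample, with a bar at the group mean. Fgf2 and Fgfr1 were higher in all 3 PBOO bladders of week 4 and far lower in both PBOO bladders of week 5, and Fgfr3 had the opposite order.

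At week 4, Fgf2 and its main receptor Fgfr1 were upregulated in PBOO bladder tissues and Fgfr3 was downregulated at an unadjusted p under 0.05, while the other 6 members did not pass this test. None of the 9 reached an adjusted p under 0.05 with a 2-fold change in limma, a rule that the study's methods state for DESeq2. The study's results instead give P under 0.05 with a fold change above 2 for week 4. The 3 changes called here were all under 2-fold (1.59 for Fgf2, 1.32 for Fgfr1 and 1.45 for Fgfr3). Of all 11320 genes tested with limma, 5.76% were upregulated and 26.2% downregulated at the unadjusted threshold, against 2 and 1 of the 9 members. By the rule with the adjusted p and a 2-fold change, 0.265% of all genes were upregulated and 0.106% downregulated. Over all genes the median change was -0.25 on the log2 scale at week 4 and moved to -0.01 when the samples were rescaled by median ratios, so the 3 changes called are also given relative to that median. The other 6 members lay between -0.16 (Fgfr4) and 0.63 (Fgf18) relative to it.

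Fgf2, which stimulates fibroblasts and smooth muscle cells, had 4.07, 3.58 and 3.77 FPKM in the normal bladders of week 4. The PBOO bladders of that week had 4.96, 7.64 and 5.97 FPKM. Every PBOO value lay above every normal one, which was also the case for 6.63% of all genes tested. The log2 fold change was 0.67 (limma, SE, or standard error, 0.20, unadjusted p = 0.0128, adjusted p = 0.0917), or 0.92 above the median of all genes. Replicate 2 was the highest PBOO bladder, and without it the log2 fold change of Fgf2 was 0.51 with an unadjusted p of 0.0528 in limma. Nudt6, a gene that overlaps Fgf2 in the RefSeq annotation, had a log2 fold change of 0.01 (95% interval -0.50 to 0.52).

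Fgfr1 had 39.4, 48.8 and 45.9 FPKM in the normal bladders of week 4 and 58.7, 66.6 and 52.2 FPKM in the PBOO bladders. The groups did not overlap. The log2 fold change was 0.40 (limma, SE 0.13, unadjusted p = 0.0191, adjusted p = 0.105), or 0.66 above the median of all genes. The call was lost without PBOO replicate 2 (log2 fold change 0.31, unadjusted p = 0.0757 in limma) and without normal replicate 1 (0.31, unadjusted p = 0.0586).

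Fgfr3 had 34.6, 25.1 and 25.3 FPKM in the normal bladders of week 4 and 25.0, 18.7 and 15.4 FPKM in the PBOO bladders. PBOO replicate 1 lay just under the lowest normal bladder, and a separation in this direction was found for 34.9% of all genes. The log2 fold change of Fgfr3 was -0.53 (limma, SE 0.21, unadjusted p = 0.0392, adjusted p = 0.139), only 0.28 below the median of all genes. After median-ratio scaling it was -0.28 with an unadjusted p of 0.154 in limma, so the call of Fgfr3 at week 4 depended on the scaling. It also depended on single bladders: without normal replicate 1 the value was -0.38 (unadjusted p = 0.118 in limma), and without PBOO replicate 2 or 3 or normal replicate 3 the unadjusted p was 0.0970, 0.115 and 0.0502 in limma.

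The remaining members of week 4 had intervals that included 0. Fgf7 had a log2 fold change of 0.05 (95% interval -0.46 to 0.57) and its receptor Fgfr2 of -0.03 (-0.45 to 0.40). For Fgf1 the value was -0.12 (-0.57 to 0.32). The intervals of the low genes were wider, with 0.38 (-0.67 to 1.43) for Fgf18 and -0.42 (-1.31 to 0.48) for Fgfr4. Fgf10, a mesenchymal ligand of the epithelial Fgfr2, had 0.684 FPKM in normal replicate 1 but 4.17 and 4.17 FPKM in the other normal bladders, and 2.42, 2.70 and 1.73 FPKM in the PBOO bladders. With all samples its log2 fold change was -0.05 (-1.60 to 1.51). Without normal replicate 1, the bladder with low interstitial markers, it was -0.86 with an unadjusted p of 0.0161 in limma, so this sample decided the result for Fgf10.

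At week 5, 5 of the 8 members tested had changed in PBOO bladder tissues, and all 5 passed the adjusted threshold with at least a 2-fold change. The ligands Fgf1, Fgf2 and Fgf7 and the receptor Fgfr1 were downregulated, and Fgfr3 was upregulated. Of all 13685 genes tested at week 5, 24.6% were upregulated and 18.8% downregulated at the unadjusted threshold, and 7.91% and 11.4% by the stricter rule. Among the members, 1 of 8 was upregulated and 4 of 8 were downregulated by either rule. Genes had to average 0.5 FPKM to be tested. Fgf2 and Fgf7 passed only through the normal bladders, as their PBOO means were 0.102 and 0.0850 FPKM. With a minimum mean of 1 FPKM these 2 genes were not tested. Of the 5 members then left, 1 was upregulated and 2 were downregulated at the unadjusted threshold. Over all genes the median change was 0.12 on the log2 scale (0.02 after median-ratio scaling).

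Fgf2 had 1.08, 1.15 and 1.001 FPKM in the normal bladders of week 5 and 0.0965 and 0.108 FPKM in the PBOO bladders. The normal mean was 10.5 times the PBOO mean, and the groups were far apart. On the log2(FPKM + 0.1) scale, where 0.1 is a pseudocount added to every value, the log2 fold change was -2.54 (limma, SE 0.39, unadjusted p = 0.000781, adjusted p = 0.00718). The PBOO values are close to the pseudocount itself, which shrinks the change, and with a pseudocount of 1 the log2 fold change was -0.91. Nudt6 had a log2 fold change of 0.13 (95% interval -0.29 to 0.54).

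Fgf7 had 0.927, 1.41 and 1.19 FPKM in the normal bladders of week 5. In the PBOO bladders it had 0.170 FPKM in replicate 1 and was listed at 0 in replicate 2. Its log2 fold change was -2.94 (limma, SE 0.57, unadjusted p = 0.00260, adjusted p = 0.0154) and -1.002 with a pseudocount of 1. The other ligand that fell was Fgf1, the acidic FGF, which binds all 4 receptors. It went from 4.03, 4.66 and 4.89 FPKM to 1.499 and 1.04 FPKM, a log2 fold change of -1.77 (limma, SE 0.23, unadjusted p = 0.000337, adjusted p = 0.00430).

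Fgfr1 had 35.1, 36.8 and 33.6 FPKM in the normal bladders of week 5 and 8.08 and 6.83 FPKM in the PBOO bladders. Its log2 fold change was -2.23 (limma, SE 0.13, unadjusted p = 4.13e-06, adjusted p = 0.000382). Fgfr3 moved the other way, from 54.4, 39.0 and 41.3 FPKM to 129 and 127 FPKM, a log2 fold change of 1.53 (limma, SE 0.17, unadjusted p = 0.000154, adjusted p = 0.00271). Fgfr2 had 11.6, 11.2 and 10.6 FPKM in the normal and 11.5 and 11.9 FPKM in the PBOO bladders. Its log2 fold change was 0.07 (95% interval -0.23 to 0.37), the narrowest interval among the members without a call. Each of these receptors kept its call and its direction when any single bladder of week 5 was left out, apart from Fgfr2, which stayed without a call. Separated groups, higher or lower, were found in 35.3% and 25% of all genes at week 5.

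Fgf10 and Fgfr4 had no call at week 5, and their values were spread widely between bladders of the same group. Fgf10 had 0.603, 2.13 and 0.101 FPKM in the normal and 0.106 and 0.158 FPKM in the PBOO bladders. Its log2 fold change was -1.56 (95% interval -4.16 to 1.04). Without normal replicate 3, whose value lay below both PBOO values, it was -2.44 with an unadjusted p of 0.0269 in limma. Fgfr4, which binds Fgf1 and Fgf18 among others, had 0.445 FPKM in PBOO replicate 1 and 2.18 FPKM in replicate 2, below and above all normal bladders (1.75, 1.04 and 1.21 FPKM). Its log2 fold change was -0.33 (95% interval -1.93 to 1.26), 0.70 without PBOO replicate 1 (unadjusted p = 0.121 in limma) and -1.37 without PBOO replicate 2 (unadjusted p = 0.0198). Fgf18 had a mean under 0.5 FPKM and was not tested at week 5. Its PBOO values were 0.0294 and 0.693 FPKM, and its normal values were 0.303, 0.429 and 0.0252 FPKM.

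**Figure D2:**
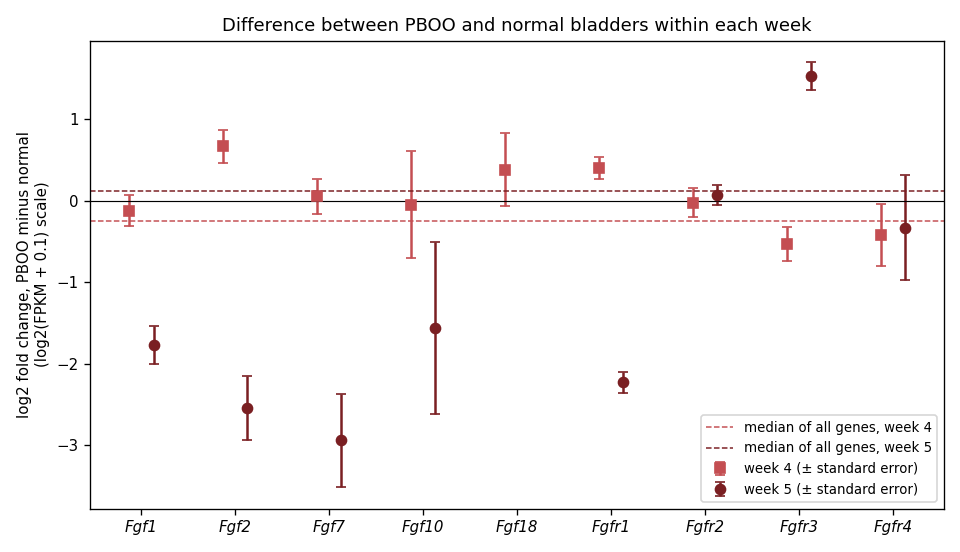
Log2 fold change of PBOO minus normal bladders on the log2(FPKM + 0.1) scale for each member at week 4 (squares) and week 5 (circles), with standard errors from limma. Dashed lines mark the median of all genes in each week. Fgf2 and Fgfr1 lie above 0 at week 4 (0.67 and 0.40) and below it at week 5 (-2.54 and -2.23), Fgfr3 lies on the opposite sides (-0.53 and 1.53), and Fgf18 has no value at week 5.

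The effect of obstruction differed between the weeks for 5 of the 8 members that could be compared. This was tested in limma as the PBOO effect of week 5 minus that of week 4 over all 11 samples. Of the 10684 genes in this comparison, 35.5% had a higher and 15.6% a lower effect at week 5 at the unadjusted threshold, and 15.7% and 11.5% by the rule with the adjusted p. Fgf2 had a difference of -3.21 on the log2 scale (limma, SE 0.33, adjusted p = 6.89e-05). Fgf7 (-2.99, adjusted p = 0.00181), Fgfr1 (-2.63, adjusted p = 7.62e-06) and Fgf1 (-1.65, adjusted p = 0.00206) also had a lower effect at week 5, and Fgfr3 had a higher one (2.06, adjusted p = 0.000627). With a pseudocount of 1 the differences of Fgf2 and Fgf7 were -1.48 and -1.05, and that of Fgfr1 was -2.50, so the order of these genes depended on the pseudocount. With a minimum mean of 1 FPKM, Fgf2 and Fgf7 were not tested, and 3 of the 4 members left differed at the unadjusted threshold. For Fgf2, Fgfr1 and Fgfr3 the estimates had opposite signs in the weeks. For Fgfr2 the difference was 0.10 (95% interval -0.42 to 0.62), for Fgfr4 0.08 (-1.59 to 1.75) and for Fgf10 -1.51 (-4.35 to 1.32). Week, the sets of control rats and the processing of the weeks cannot be told apart in this comparison.

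The makeup of the receptors in a sample does not depend on how the sample was scaled. Fgfr1 took 43.0% ± 7.003 (SD, n = 3) of the summed FPKM of the 4 receptors in normal bladders of week 4 and 54.1% ± 3.46 in PBOO bladders, and Fgfr3 took 26.9% ± 3.27 and 17.9% ± 3.05. Neither of these shares overlapped between the groups. The share of Fgfr2 was 29.3% ± 3.93 and 27.4% ± 0.529. At week 5 the receptor pool of PBOO bladders was almost all Fgfr3, with 86.2% ± 0.497 (SD, n = 2) against 48.3% ± 4.36 in normal bladders, while Fgfr1 took 5.01% ± 0.571 against 38.2% ± 3.88. Fgfr2 took 7.87% ± 0.240 against 12.1% ± 0.749, and Fgfr4 stayed under 2% in all samples. In an exact permutation test (two-sided), the shares of Fgfr1 and Fgfr3 had p = 0.1 at week 4 and p = 0.2 at week 5, and in both weeks these are the smallest values that so few samples allow. Adjusted over the 18 receptor and ligand shares tested, they were 0.4 (exact permutation test).

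The ratio of Fgfr3 to Fgfr1 sums up this shift. It was 0.877, 0.515 and 0.552 in the normal bladders of week 4 and 0.426, 0.280 and 0.296 in the PBOO bladders. At week 5 it was 1.55, 1.06 and 1.23 in the normal bladders and 16.0 and 18.6 in the PBOO bladders. All PBOO bladders of week 4 thus lay below, and both PBOO bladders of week 5 above, the normal bladders of their week. The receptors summed to 86.7 to 103 FPKM in normal and to 149 and 148 FPKM in PBOO bladders of week 5. The 5 ligands examined here summed to 6.94 to 9.78 FPKM and to 1.90 and 2.00 FPKM. Receptor FPKM per FPKM of these 5 ligands was therefore 9.01 to 14.8 in normal and 78.5 and 74.1 in PBOO bladders of week 5. At week 4 it was 2.92 to 4.93 in normal and 3.10 to 3.96 in PBOO bladders. These values leave out the 12 other Fgf genes measured. Among them are the intracellular Fgf12 and Fgf13, with means of 0.865 and 0.523 FPKM in normal bladders of week 5. The 12 genes summed there to 14.9 to 15.6 FPKM in normal and to 25.5 and 10.7 FPKM in PBOO bladders. These sums were above those of the 5 ligands in both groups. The ratio thus depends on which Fgf genes are counted, and it was not computed with the 12 included.

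**Figure D3:**
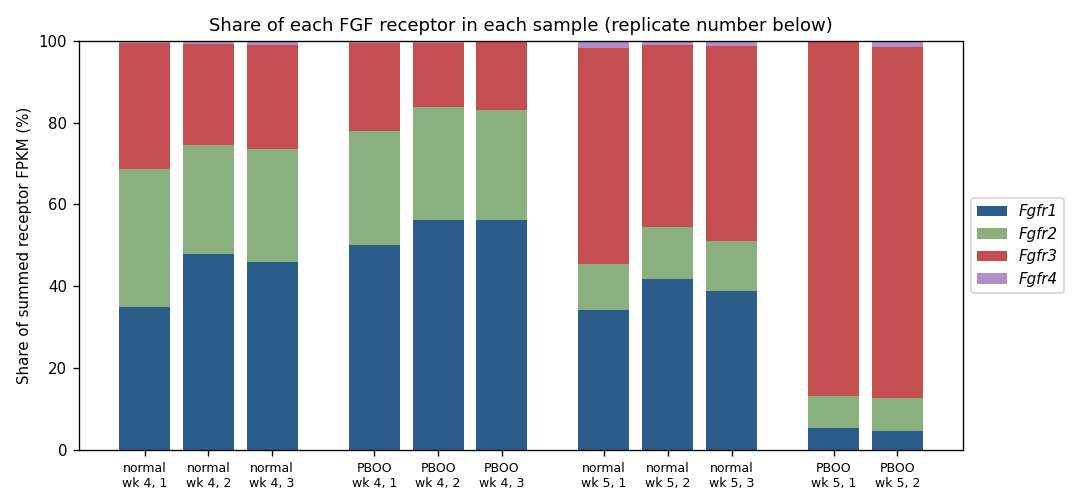
Share of each receptor in the summed FPKM of Fgfr1 to Fgfr4, in percent, as a stacked bar for every sample, with group, week (wk) and replicate number below. Fgfr1 holds the largest part in all PBOO bladders of week 4 (50.1% to 56.1%), and Fgfr3 holds 86.6% and 85.9% in the PBOO bladders of week 5.

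Among the ligands, Fgf7 took 56.7% ± 1.43 of the summed ligand FPKM in normal and 54.5% ± 4.26 in PBOO bladders of week 4, and these ranges overlapped. Fgf2 took 17.8%, 10.8% and 11.02% in the normal and 16.8%, 20.9% and 19.9% in the PBOO bladders of week 4. The overlap for Fgf2 came from normal replicate 1 alone, the bladder with low interstitial markers, and without it the groups were apart. At week 5, Fgf2 took 13.7% ± 1.92 in normal and 5.24% ± 0.229 in PBOO bladders, and Fgf7 took 14.8% ± 1.59 and 4.47% ± 6.33, both without overlap (exact permutation test, two-sided, p = 0.2, the smallest possible). Fgf1 led these 5 ligands in both groups at week 5, with 57.9% ± 10.1 and 65.5% ± 18.9.

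Markers of the cell types of the bladder wall also changed. The smooth muscle markers had the direction of Fgf2 and Fgfr1 in both weeks. Counts of markers are at an unadjusted p under 0.05. At this threshold 5.76% of all genes were upregulated and 26.2% downregulated at week 4, and 24.6% and 18.8% at week 5. The summed FPKM of 9 smooth muscle genes (among them Myh11, Acta2 and Des) was 25706 to 27865 in normal and 51355 to 82641 in PBOO bladders of week 4, and 7 of the 9 were upregulated at an unadjusted p under 0.05. At week 5 the same sum was 25005 to 29409 in normal and 1866 and 997 in PBOO bladders, and all 9 were downregulated, their median being -4.42 on the log2 scale. The 8 interstitial markers (such as Pdgfra, Col1a1 and Dcn) summed to 1541 to 1894 FPKM in normal and 131 and 207 FPKM in PBOO bladders of week 5, where 7 were downregulated, with a median of -3.23. At week 4 none of the 7 tested passed, and their PBOO sum (3515 to 4274 FPKM) lay near that of normal replicates 2 and 3.

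Urothelial markers moved at week 4 in the direction of Fgfr3. Of 11 tested, 10 were downregulated and none was upregulated, against 26.2% and 5.76% of all genes. The urothelial sum was 7202 to 9118 FPKM in normal and 4360 to 5542 FPKM in PBOO bladders of week 4. At week 5 it was 8558 to 11073 FPKM in normal and 11605 and 11642 FPKM in PBOO bladders. The urothelial markers split there, with 3 of 13 upregulated and 6 downregulated, against 24.6% and 18.8% of all genes. Krt5, a keratin of basal urothelial cells, rose with a log2 fold change of 3.52 (limma adjusted p = 0.00893), to between 780 and 2859 FPKM. Krt20, a keratin of the superficial cells, fell by 6.47 (limma adjusted p = 0.000760) and the uroplakin Upk2 fell by 2.39 (limma adjusted p = 0.000532). The uroplakin Upk3a had a log2 fold change of 0.03 (95% interval -0.42 to 0.48), and the keratin Krt19 rose by 1.75 (limma adjusted p = 0.0172). Of 11 leukocyte markers, 9 were upregulated at week 5 and none was downregulated, against 24.6% and 18.8% of all genes. Of 6 endothelial markers, 2 were downregulated at week 4 and 1 upregulated at week 5, near the shares of all genes (26.2% and 24.6%). Of 6 nerve and glia markers, 4 were downregulated in each week, against 26.2% and 18.8% of all genes. In these tissue samples fewer cells of a type and less RNA per cell cannot be told apart. Which part of the bladder wall each sample held is not stated. The part of these markers in the FGF results was not tested.

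**Figure D4:**
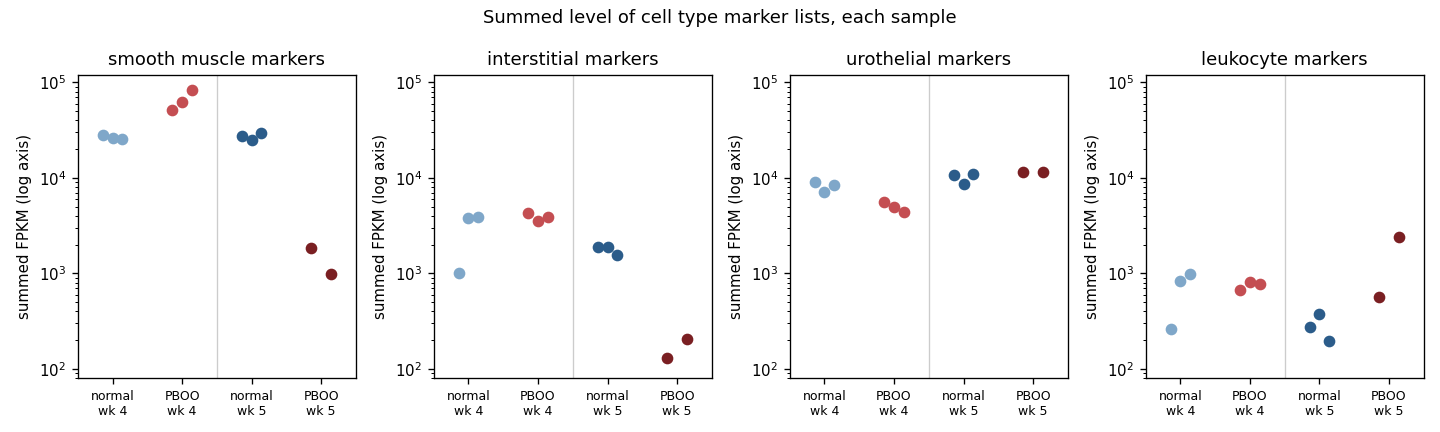
Summed FPKM of 4 lists of cell type markers in every sample, on a logarithmic axis with the same range in each panel. The smooth muscle sum is higher in PBOO bladders of week 4 and 1866 and 997 FPKM in those of week 5, and normal replicate 1 of week 4 is low in interstitial (1020 FPKM) and leukocyte markers (259 FPKM).

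The counts for the following lists are at an unadjusted p under 0.05, for which the shares of all genes were 5.76% upregulated and 26.2% downregulated at week 4, and 24.6% and 18.8% at week 5. Of the heparan sulfate proteoglycans, which hold FGFs at the cell surface and in the matrix, 4 of 10 tested were upregulated and 2 downregulated at week 4, and none passed the adjusted rule, their median being 0.10 on the log2 scale against -0.25 for all genes. Sdc3 (syndecan 3) rose from 17.8 ± 5.47 to 37.7 ± 3.02 FPKM (log2 fold change 1.12, limma adjusted p = 0.0538), Gpc4 (glypican 4) had a log2 fold change of 1.03 (limma adjusted p = 0.0619) and Sdc1, the syndecan of epithelia, fell by 0.85 (limma adjusted p = 0.0853). At week 5, 4 of 12 were upregulated and 7 downregulated, with a median of -1.19 against 0.12. Sdc3 and Gpc4 were downregulated there, with log2 fold changes of -2.38 and -1.31 (limma adjusted p = 0.000651 and 0.00748). So were Sdc2 (-2.37), Gpc3 (-3.06) and Gpc6 (-2.20). Col18a1 was among the 4 upregulated (1.12, limma adjusted p = 0.0966), and Sdc1 had 0.46 (95% interval -0.22 to 1.14). The summed FPKM of all 12 was 802 to 1005 in normal and 1306 and 968 in PBOO bladders of week 5. Of 13 genes for enzymes that build or cut heparan sulfate, none was upregulated and 3 were downregulated at week 4, and 5 were upregulated and 3 downregulated at week 5. The 3 downregulated genes were close to the share of all genes in both weeks (26.2% and 18.8%). Hpse (heparanase), which cleaves the chains, rose at week 5 from 6.82 ± 1.46 to 18.2 ± 1.63 FPKM (log2 fold change 1.42, limma adjusted p = 0.00700). The sulfotransferases Hs3st1 and Hs6st1 also rose there, by 1.18 and 1.17 on the log2 scale.

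Of 8 FGF binding and accessory proteins tested, 1 was upregulated and 2 downregulated at week 4, and 1 was upregulated and 5 downregulated at week 5. Fgfbp1, a carrier that releases FGFs from the matrix, had 0.0869, 0.207 and 0.0527 FPKM in normal bladders of week 5 but 0.954 and 30.3 FPKM in the PBOO bladders. Both PBOO values were above the normal ones and differed widely from each other (log2 fold change 4.78, limma, SE 1.38, adjusted p = 0.0499). The adhesion proteins Cdh2 and Ncam1, which can associate with FGF receptors, had log2 fold changes of -4.65 and -3.65 at week 5 (limma adjusted p = 0.000288 and 0.000563), whereas Ncam1 had a log2 fold change of 0.58 at week 4 (limma adjusted p = 0.113).

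Of 25 adaptor and kinase genes tested at week 4, 1 was upregulated and 4 were downregulated, and of 27 at week 5, 5 were upregulated and 4 downregulated. These counts were below the shares of all genes at week 4 (5.76% and 26.2%) and at week 5 (24.6% and 18.8%). Their medians were -0.09 and 0.02, against -0.25 and 0.12 for all genes. Ptpn11, which encodes the phosphatase SHP2 that acts downstream of FGF receptors, rose at week 4 (log2 fold change 0.37, unadjusted p = 0.0209, limma adjusted p = 0.108) and fell at week 5 (-1.03, limma adjusted p = 0.00629).

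Of 12 feedback inhibitors, none was upregulated at week 4 and 2 were downregulated, namely the MAP kinase phosphatase Dusp5 (log2 fold change -0.70, limma adjusted p = 0.0805) and Spry1, a Sprouty inhibitor (-0.54, limma adjusted p = 0.0690). The 2 downregulated were a lower share than the 26.2% of all genes. At week 5, 4 were upregulated and 1 downregulated, against 24.6% and 18.8% of all genes. Dusp4 rose from 1.41 ± 0.349 to 4.56 ± 1.22 FPKM (log2 fold change 1.63, limma adjusted p = 0.0122), and Dusp5 and Dusp7 rose by 0.96 and 0.83. Il17rd, a membrane inhibitor of FGF signalling, fell (-1.93, limma adjusted p = 0.0822). Of 12 transcription factor and response genes, none was upregulated and 3 were downregulated at week 4, among them Myc (-0.59, limma adjusted p = 0.0677), and 3 were upregulated and 3 downregulated at week 5. Ets2, an ETS factor, rose at week 5 from 22.3 ± 1.22 to 63.5 ± 1.71 FPKM (log2 fold change 1.51, limma adjusted p = 0.000728), and Ccnd1 (cyclin D1) fell by 0.83 (limma adjusted p = 0.00365).

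Of the 12 other Fgf genes in the table, 6 passed the filter on low values at week 4 and 4 at week 5. Fgf12, an intracellular FGF that is not secreted, was downregulated in both weeks, with log2 fold changes of -0.72 (unadjusted p = 0.0332, limma adjusted p = 0.129) and -2.66 (limma adjusted p = 0.0109). Fgf13, another intracellular FGF, had a log2 fold change of -1.44 at week 4 (unadjusted p = 0.0137, limma adjusted p = 0.0941) and was under the filter at week 5. Its mean was under 1 FPKM, and it was named after its values were seen. None of the others passed in either week.

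The profile of each member was also set beside those of 10683 other genes, by the root mean square difference over the 11 samples of log2 values from the normal mean of the week. The closest genes to Fgf2 were Numbl, at 0.11 log2 units, Plcl1 at 0.17 and Cacna1c, the pore of the L-type calcium channel, at 0.17. Cacna1c had log2 fold changes of 0.66 at week 4 and -2.68 at week 5. For Fgfr1 the closest were Ccdc65 (0.15), Tceal9 (0.15) and Prickle2 (0.16). Fgfr3 was closest to Hmga1 (0.08), a chromatin protein of proliferating cells, followed by Ets2 (0.15) and Mtss1 (0.15). Fgf7 was nearest to Plekha4 (0.21), Foxp2 (0.25) and Ntn1 (0.27), and Fgf1 to Smarcd3 (0.17), Lrrc32 (0.20) and Tgm2 (0.21). Fgfr2 lay close to Zfp438 (0.08), Usp9x (0.09) and Zmat3 (0.09), whose log2 fold changes stayed between -0.13 and 0.12 in both weeks. The nearest genes to Fgfr4 (Klhl11, Nr2c2 and Ppip5k2) and Fgf10 (Akr1c14, Tsc22d3 and Gpt2) were at 0.25 or more and at 0.53 or more. These distances describe the profiles and were not tested.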

How the data were processed

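Bladder RNA of 11 samples was analysed. According to the study's methods, the authors sequenced TruSeq libraries in pairs on a HiSeq4000, trimmed with SeqPrep and Sickle, mapped with HISAT2, assembled with StringTie and deposited gene values as FPKM. The submitters' processing notes name the mouse build mm10, although the samples are rat and 425 symbols of the table are of the rat RGD kind. Neither annotation nor strandedness is given in the sources used here. Without strand, reads of Fgf1, Fgf2, Fgf7 and Fgf10 cannot be told apart from those of genes that overlap them (Arhgap26, Nudt6, Fam227b and a non-coding RNA).

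Samples were grouped by their titles. Whole reads could not be recovered from low values. For genes under 0.1 FPKM, the ratios between 2 samples were set against ratios of small whole numbers at the best relative depth. At week 4, 9.96% to 13.3% lay within 0.5% of one, against 9.68% to 12.9% in shuffled genes, and pairs went both ways. At week 5 it was 9.32% to 12% against 7.27% to 9.11%, and every pair was above its shuffled share. No 2 samples shared values. Each week was fitted alone with limma 3.58.1 in R 4.3.3 (eBayes with a trend, two-sided) on log2(FPKM + 0.1) for genes averaging 0.5 FPKM or more over the samples fitted, and p was adjusted by Benjamini-Hochberg over all genes tested. The difference between weeks used all 11 samples. The authors' DESeq2 test needs counts and was not run. Upregulated and downregulated, rose and fell mean an unadjusted limma p under 0.05. On simulated data with 200 genes changed by 2 on the log2 scale, 96.5% of them passed at week 4 (11320 genes) and 91% at week 5 (13685 genes). Of the unchanged genes, 5.41% and 5.35% passed. The changes called at week 4 were smaller (0.67, 0.40 and -0.53), and the power for changes of that size was not tested. Shares were compared with scipy 1.17.1. The members, lists and tests were chosen with earlier results of these data known. From each list, up to 4 genes per week with the largest change, an unadjusted p under 0.05 and a mean of at least 1 FPKM could be named, and for each member the 3 nearest profiles. Nudt6 was added for its overlap with Fgf2. Promoter windows are from RefSeq (GRCr8), and 8 of the 9 members matched. The alternatives were other scalings, filters and pseudocounts, a fit without a trend, a replicate block, a joint fit and each sample left out.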

Additional observations from a re-analysis of the deposited data

Results flagged for a closer look

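The effect of obstruction differed between week 4 and week 5 in 5 members by the interaction term of limma, at an adjusted p under 0.05. The log2 effect of week 5 minus that of week 4 was -3.21 for Fgf2, -2.99 for Fgf7, -2.63 for Fgfr1, -1.65 for Fgf1 and 2.06 for Fgfr3. With a pseudocount of 1 the values of Fgf2 and Fgf7 were -1.48 and -1.05. Of all genes compared, 15.7% had a higher and 11.5% a lower effect at week 5 at that threshold with a 2-fold difference. The smooth muscle and interstitial marker sums were lower in PBOO bladders of week 5, as were the 4 genes that had the lower effect. At week 4 the smooth muscle sum was higher, as were Fgf2 and Fgfr1. Fgf1 and Fgf7 had no call at week 4, and no interstitial marker passed there. The part of these markers in the difference was not tested. No group had the 4 samples needed to test for a sample far from the others.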

How the results depend on the processing

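The count of members past an unadjusted p under 0.05 was 3 at week 4, 5 at week 5 and 5 for the difference between weeks. With a minimum mean of 1 FPKM it was 3 at week 5 and 3 for the difference, since Fgf2 and Fgf7 no longer entered these tests. Leaving out 1 sample gave 0 to 3 at week 4, with 0 without PBOO replicate 2, and 5 to 6 at week 5. With the replicate number as a block the counts were 3, 6 and 6, Fgf10 being the added gene (-2.39 for the difference, unadjusted p = 0.0455 in limma). Nothing states that the numbers pair the rats. At week 5 the block gave Fgf10 -2.44, the same value as leaving out normal replicate 3, which has no PBOO bladder of its number. Same-numbered samples of week 4 had correlations of deviations of 0.15, -0.02 and 0.23, and different-numbered ones of -0.21 to 0.09. Those of week 5 were -0.0008 and 0.12 for the same number and -0.16 to 0.16 for different numbers. So few samples cannot settle whether they were paired. Fgfr3 at week 4 lost its call with median-ratio, equal-sum and quantile scaling, without a trend and without 4 of the 6 samples. Fgf1, Fgf2, Fgf7, Fgfr1 and Fgfr3 kept their calls at week 5 and between weeks in every setting in which they were tested.

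Signs changed only for estimates without a call, and the cause was not tested. At week 4, Fgf1 was 0.12 with median-ratio scaling and 0.10 with quantile normalization, Fgf10 was 0.19, 0.052 and, with equal sums, 0.042, and Fgfr2 was 0.22, 0.16 and 0.069. Leaving out 1 sample of week 4 gave -0.22 to 0.030 for Fgf1, -0.15 to 0.16 for Fgf7, -0.86 to 0.36 for Fgf10 and -0.11 to 0.13 for Fgfr2. At week 5, Fgfr2 was -0.031 with median-ratio scaling, and Fgfr4 ranged from -1.37 to 0.70 when 1 sample was left out. For the difference between weeks, median-ratio scaling, equal sums and quantile normalization gave -0.19, -0.067 and -0.13 for Fgfr2, and the former 2 gave -0.18 and -0.080 for Fgfr4. Leaving out 1 sample gave -0.062 to 0.19 for Fgfr2 and -0.95 to 1.11 for Fgfr4. The read depth is unknown, and FPKM near 0.1 are limited by the pseudocount.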
